A study of Mus musculus with 8 samples.

Results

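The 10 genes described here mark or build the blood-brain barrier, the wall formed by the endothelial cells of brain capillaries. They were matched by gene symbol and are the junction genes Cldn5, Ocln and Tjp1, the endothelial adhesion genes Cdh5 and Pecam1, the transporter genes Abcb1a, Mfsd2a and Slc2a1, the fenestration gene Plvap and the coagulation gene Vwf. All 10 were found among the 54532 genes listed for PTS + RS and RS and among the 28229 genes listed for HDAC3 inhibitor and NaCl, and all 10 were kept by the filter on low counts in each table.

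Brain capillary endothelium differs from that of most organs in that tight junctions close the gaps between its cells, few vesicles cross it, and carriers bring nutrients in while pumps return drugs to the blood. These properties are induced and kept by pericytes, by astrocyte endfeet and by Wnt and Norrin signals that act on the endothelium. After a stroke the barrier opens around the lesion, and the levels of its junction and transport genes are widely used as readouts of its state.

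RNA-seq was analysed in 8 libraries of male C57BL/6 mouse brain labelled Day 21. The PTS + RS group (2 libraries) had photothrombotic stroke, a light-induced clotting of cortical vessels, together with repeated restraint stress, and the RS group (2 libraries) had restraint stress without stroke. All 4 of these libraries are labelled cortex. The HDAC3 inhibitor group (2 libraries) received RGFP109 under the skin at 60 mg/kg daily, and the NaCl group (2 libraries) was its control. The study describes RGFP109 as an inhibitor selective for the histone deacetylases HDAC1 and HDAC3. Its methods give 2 weeks of dosing, whereas a figure legend gives 21 days. Mice of both drug groups are labelled PTS + RS as well, so that stroke and restraint are shared by HDAC3 inhibitor and NaCl. In each drug group replicate 1 is labelled cortex and replicate 2 amygdala. Whether a library held tissue of 1 mouse or of several was not stated, so the p-values measure only the spread between these libraries, which may be technical.

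The libraries held 15902013 to 21712033 counts on genes, 3.59% to 4.55% of them mitochondrial. Several libraries stood apart in markers of other tissue. Choroid plexus genes (10 genes, led by Ttr) summed to between 2219 and 5588 CPM (the count scaled to the library size) in PTS + RS replicate 1, both RS libraries and HDAC3 inhibitor replicate 1, and to between 182 and 224 CPM in the other 4 libraries. Red blood cell genes summed to 127 and 438 CPM in the libraries labelled amygdala of the drug groups, to 1.65 and 12.9 CPM in those labelled cortex, and to between 37.3 and 60.9 CPM in the PTS + RS and RS libraries. Olfactory bulb genes summed to 1371 CPM in NaCl replicate 1 and to between 164 and 272 CPM elsewhere. Striatal genes summed to 1373 and 1514 CPM in the libraries labelled amygdala and to between 174 and 257 CPM in the rest, whereas the list of 10 amygdala genes summed to 355 and 338 CPM there against 376 to 483 CPM in the libraries labelled cortex. Microglial genes summed to 1400 and 1191 CPM in PTS + RS against 321 and 292 CPM in RS. All 10 barrier genes had over 10 counts in every library.

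**Figure D1:**
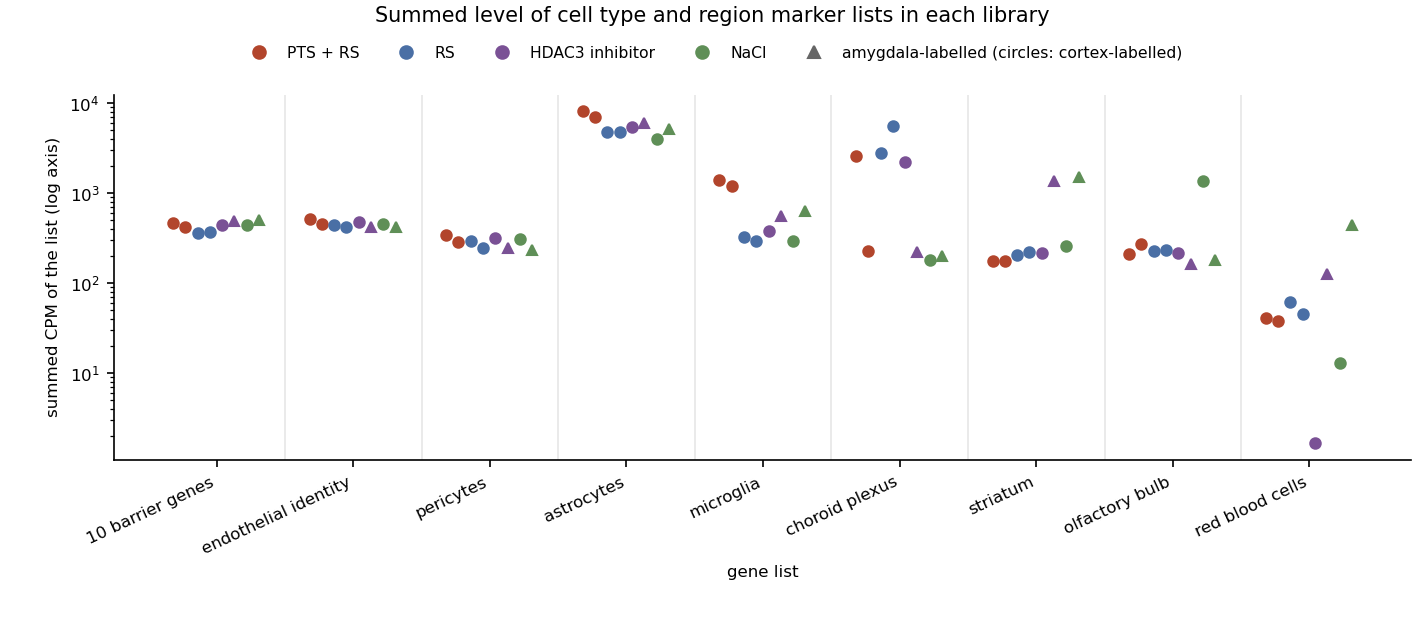
Summed CPM (log axis) of the 10 barrier genes and of 8 marker lists in each library; each point is 1 library, coloured by group, with triangles for libraries labelled amygdala. The barrier genes, the endothelial identity genes and the pericyte genes lie in narrow bands, while choroid plexus, striatum, olfactory bulb and red blood cell genes separate libraries of the same group.

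Levels were first compared per gene length, as the deposited FPKM values, which divide a count by the length of the gene and by a factor of its library. The positions given are those deposited, on GRCm38. The junction genes span the range. Cldn5, the claudin that seals the tight junctions of brain endothelium, lies on chromosome 16 (18776847 to 18778262, plus strand) and was at a lowest, median and highest FPKM of 18.2, 27.6 and 37.6 over the 8 libraries. Tjp1, the scaffold protein ZO-1 that ties claudins and occludin to actin in endothelium and in many other cells, lies on chromosome 7 (65296165 to 65527781, minus strand) and was at 14.3, 16.8 and 21.4 FPKM. Ocln, a membrane protein of tight junctions in endothelium and epithelium, lies on chromosome 13 (100496507 to 100552718, minus strand) and was at 1.89, 2.62 and 4.21 FPKM. Per length Ocln was the lowest of the junction genes in each library and Cldn5 the highest, except in HDAC3 inhibitor replicate 2, where Tjp1 was slightly above Cldn5.

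The transporter genes were next. Slc2a1, the glucose carrier GLUT1 of the barrier, lies on chromosome 4 (119108711 to 119137983, plus strand) and was at a lowest, median and highest FPKM of 20.1, 24.5 and 51.1. Mfsd2a, which carries docosahexaenoic acid as lysophospholipid and keeps vesicle transport low, lies on the same chromosome (122946850 to 122961188, minus strand) and was at 7.24, 9.47 and 16.2 FPKM. Abcb1a, the drug efflux pump P-glycoprotein, lies on chromosome 5 (8660077 to 8748575, plus strand) and was at 5.12, 7.30 and 9.56 FPKM. Part of the Abcb1a transcript is shared with its neighbour and paralog Abcb1b, since 9.03% of all 100-base runs of Abcb1a transcripts also occur in Abcb1b. A read that lies wholly within shared sequence fits both genes, and how such reads were counted is not given in the sources used here.

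The other 4 genes were lower than the transporters in median. Cdh5, the cadherin of endothelial adherens junctions, lies on chromosome 8 (104101625 to 104144511, plus strand) and was at a lowest, median and highest FPKM of 3.64, 4.10 and 5.76. Pecam1, an adhesion protein between endothelial cells and on platelets and leukocytes, lies on chromosome 11 (106654217 to 106750628, minus strand) and was at 3.02, 3.41 and 4.62 FPKM. Both genes are general endothelial markers. Plvap forms the diaphragms of fenestrae and vesicles, is low in mature barrier endothelium and is present in the fenestrated vessels of the choroid plexus. It lies on chromosome 8 (71497765 to 71511752, minus strand) and was at 3.27, 4.08 and 6.67 FPKM. It overlaps Gtpbp3 on the opposite strand, which had 1857 counts over the PTS + RS and RS libraries against 667 for Plvap. The kit named in the labels keeps strand, the study's methods name a different kit, and whether counting used strand is not given in the sources used here. Vwf, the clotting factor stored by endothelial cells and platelets, lies on chromosome 6 (125546774 to 125686679, plus strand) and had the lowest median, at 1.46, 1.86 and 3.91 FPKM.

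By median FPKM the order was Cldn5, Slc2a1, Tjp1, Mfsd2a, Abcb1a, Cdh5, Plvap, Pecam1, Ocln and Vwf. The ranges of all neighbours in this order overlapped. Slc2a1 was above Tjp1, Mfsd2a above Abcb1a, and Abcb1a above Cdh5 in 8 of 8 libraries, whereas Cldn5 was above Slc2a1 in 6 of 8, with the reverse order in the libraries labelled amygdala. Cdh5 was above Plvap in 5 of 8 libraries, and Ocln above Vwf in 5 of 8.

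**Figure D2:**
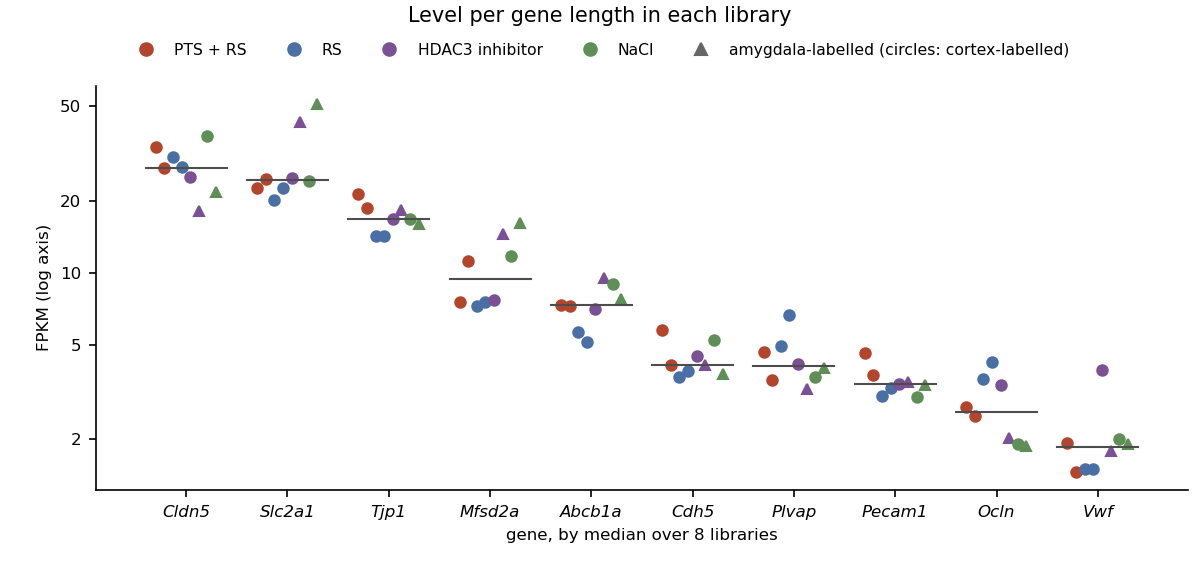
FPKM (log axis) of each gene in the 8 libraries, ordered by the median (line); points are libraries coloured by group and triangles mark libraries labelled amygdala. Slc2a1 and Mfsd2a have their highest values in the libraries labelled amygdala, where Cldn5 is low.

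Promoter sequence is shown for Slc2a1, Mfsd2a and Cldn5, whose values separated the libraries labelled amygdala from those labelled cortex (values given with that comparison). RefSeq (GRCm38.p6) gave the bases before the start for 6 of the 10 genes, and the windows of 250 bases were searched on both strands. Of the hypoxia-response core, which hypoxia-inducible factors bind, only the form ACGTG was searched, so other forms were not counted. ACGTG was in the windows of Slc2a1 and Mfsd2a and in none of those of Cldn5, Ocln, Tjp1 and Abcb1a. The windows of Tjp1 and Abcb1a lie 156537 and 92986 bases from the deposited gene starts. Of all 32851 windows of this length, 16.6% held ACGTG. It began 36 bases before the RefSeq start of Slc2a1 and 107 and 9 bases before that of Mfsd2a. The GC box GGGCGG was in the windows of Slc2a1, Cldn5, Ocln and Tjp1 and in 32.7% of all windows, and the TATA box TATAAA was in no window of these genes and in 12.4% of all. A match describes letters and does not show a bound site. The sequences run 5′ to 3′ at chr4:119108495-119108713 (plus strand, ended with ACGTG, which spans the deposited gene start) for Slc2a1, chr4:122961189-122961438 (minus strand) for Mfsd2a and chr16:18776597-18776846 (plus strand) for Cldn5, and capitals mark ACGTG.
Slc2a1: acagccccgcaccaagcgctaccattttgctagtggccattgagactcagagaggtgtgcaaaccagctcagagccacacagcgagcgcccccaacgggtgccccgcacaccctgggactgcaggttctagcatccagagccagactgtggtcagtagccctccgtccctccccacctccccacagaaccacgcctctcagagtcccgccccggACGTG
Mfsd2a: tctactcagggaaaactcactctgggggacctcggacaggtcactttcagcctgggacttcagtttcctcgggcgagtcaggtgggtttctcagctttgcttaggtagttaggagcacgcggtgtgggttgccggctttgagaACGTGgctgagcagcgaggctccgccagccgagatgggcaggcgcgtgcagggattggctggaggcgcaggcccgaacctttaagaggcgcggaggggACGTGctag
Cldn5: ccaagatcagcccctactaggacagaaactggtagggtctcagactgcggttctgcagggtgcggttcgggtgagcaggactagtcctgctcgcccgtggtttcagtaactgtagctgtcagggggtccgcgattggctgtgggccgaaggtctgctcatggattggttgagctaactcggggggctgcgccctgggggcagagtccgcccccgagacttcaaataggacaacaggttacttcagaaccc

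To describe the barrier genes after stroke, PTS + RS was compared with RS. Tjp1 rose, and it was the only gene of the 10 to pass (edgeR's quasi-likelihood test, Benjamini-Hochberg adjusted p under 0.05). Of the 17581 genes tested, 3.55% passed in either direction and 2.96% passed as higher in PTS + RS, so 1 of 10 is no clear excess over the background. The fitted values of 8 genes were above 0 and those of 2, Ocln and Plvap, were below 0. The median log2 fold change of the 10 was 0.26 against -0.0015 over all genes tested. At an unadjusted p under 0.05 there were 4 genes, Ocln, Tjp1, Pecam1 and Abcb1a, against 17.9% of all genes. The libraries of the groups did not overlap for 8 of the 10 genes, which was also true of 50.2% of all genes.

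Among the junction genes, Tjp1 was at 169 and 147 CPM in the PTS + RS libraries and at 112 CPM in both RS libraries. Both PTS + RS libraries were above both RS libraries. The log2 fold change of Tjp1 was 0.50 (SE 0.09, 95% confidence interval 0.29 to 0.70, n = 2 and 2), that is 1.41-fold, with an adjusted p of 0.03 in edgeR. Without RS replicate 1 or RS replicate 2 the log2 fold change of Tjp1 was 0.49 in each case, and the adjusted p in edgeR was 0.17 and 0.18. Tjp1 is made by glia as well as endothelium. The 10 astrocyte genes summed to 8112 and 6920 CPM in PTS + RS against 4787 and 4813 CPM in RS, with 4 of 10 passing as higher, and all 10 microglial genes passed as higher. Of 22 other endothelial identity genes, 0 passed in edgeR, DESeq2 or limma-voom, with 4 of 22 at an unadjusted p under 0.05 in edgeR. The part of other cell types in the value of Tjp1 was not tested, and in bulk tissue fewer cells of a type and less RNA per cell cannot be told apart.

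Ocln was at 11.6 and 10.7 CPM in PTS + RS and at 15.3 and 17.9 CPM in RS, lower in both stroke libraries. Its log2 fold change was -0.57 (SE 0.15, interval -0.93 to -0.21), and it did not pass (adjusted p of 0.1 in edgeR). Ocln is also made by choroid plexus epithelium, and Ttr, the carrier of thyroid hormone that is most abundant there, was at 1455 and 14.5 CPM in PTS + RS and at 1610 and 3359 CPM in RS. The part of choroid plexus in the values of Ocln was not tested. Cldn5 was at 48.0 and 39.0 CPM in PTS + RS and at 43.4 and 39.6 CPM in RS. The groups overlapped, and the log2 fold change of Cldn5 was 0.07 (SE 0.12, interval -0.22 to 0.36).

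Both adhesion genes had higher values in PTS + RS. Cdh5 was at 24.5 and 17.4 CPM in PTS + RS and at 15.4 and 16.3 CPM in RS. Pecam1 was at 29.1 and 23.4 CPM in PTS + RS and at 19.1 and 20.6 CPM in RS. PTS + RS replicate 1 was the highest library for both genes, and the groups did not overlap. The log2 fold change was 0.40 for each, with an SE of 0.18 for Cdh5 and 0.14 for Pecam1, and neither passed (adjusted p of 0.31 and 0.2 in edgeR). Without PTS + RS replicate 1 the values were 0.13 for Cdh5 and 0.23 for Pecam1. Without PTS + RS replicate 2 they were 0.62 and 0.55.

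Of the transporter genes, Abcb1a came nearest to the threshold. It was at 40.4 and 40.2 CPM in PTS + RS and at 31.1 and 28.1 CPM in RS, with the libraries of each group close together and the groups apart. Its log2 fold change was 0.44 (SE 0.10, interval 0.20 to 0.68) and its adjusted p was 0.066 in edgeR. The paralog Abcb1b, which shares sequence with it, was at 6.60 and 8.68 CPM in PTS + RS and at 5.52 and 4.42 CPM in RS. Mfsd2a was at 17.1 and 25.4 CPM in PTS + RS and at 16.4 and 17.1 CPM in RS, so PTS + RS replicate 2 alone was well above the rest. Its log2 fold change was 0.34 (SE 0.19, adjusted p of 0.41 in edgeR). Without PTS + RS replicate 1 the value of Mfsd2a was 0.60, and without PTS + RS replicate 2 it was 0.03. Slc2a1 was at 80.1 and 87.1 CPM in PTS + RS and at 70.9 and 79.9 CPM in RS. The groups of Slc2a1 were separated by less than the spread within RS, with a log2 fold change of 0.15 (SE 0.09, interval -0.07 to 0.36).

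Plvap was at 9.34 and 7.06 CPM in PTS + RS and at 9.82 and 13.3 CPM in RS. Its lowest value fell in PTS + RS replicate 2, the library with few choroid plexus counts, and its highest in RS replicate 2, the library with the most, and the part of the fenestrated vessels of that tissue was not tested. The log2 fold change of Plvap was -0.49 (SE 0.22, interval -1.02 to 0.03, adjusted p of 0.31 in edgeR). Vwf was at 31.4 and 23.6 CPM in PTS + RS and at 24.4 and 24.2 CPM in RS. The groups overlapped for Vwf, and the log2 fold change was 0.18 (SE 0.15).

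**Figure D3:**
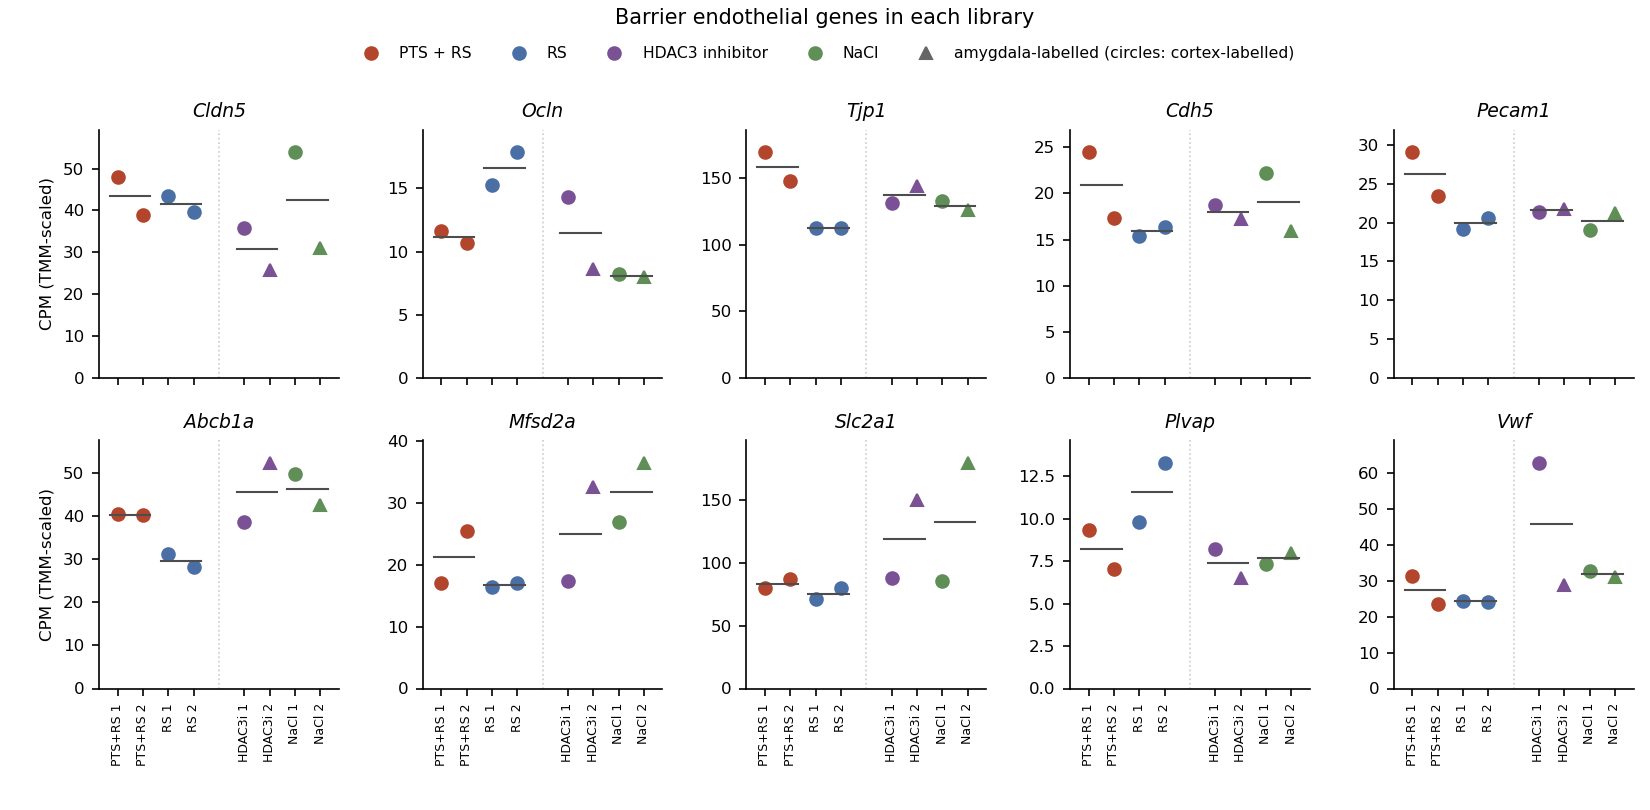
CPM of each gene in each library, with a line at the mean of each group of 2; the dotted line parts the tables, which were normalized separately, and triangles mark libraries labelled amygdala. For Tjp1 both PTS + RS libraries (169 and 147 CPM) lie above both RS libraries (112 CPM), and for Slc2a1 the libraries labelled amygdala (150 and 180 CPM) lie above all others.

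The other genes of the vessel wall were described from lists of related function. None of 18 other junction genes passed in edgeR, DESeq2 or limma-voom, with 9 higher and 9 lower and a median log2 fold change of 0.01, and 4 had an unadjusted p under 0.05 in edgeR. The lowest p among them was that of Jam2, a junctional adhesion molecule, at a log2 fold change of 0.47 (adjusted p of 0.061 in edgeR). Of 19 other barrier transporters 1 passed. It was Slco2b1, a carrier of organic anions, which was at 50.4 and 38.5 CPM in PTS + RS and at 17.3 and 16.3 CPM in RS (log2 fold change 1.41, SE 0.15, adjusted p of 0.0039 in edgeR). Microglial genes were also higher in PTS + RS, summing to 1400 and 1191 CPM against 321 and 292 CPM in RS. The part of microglia in the value of Slco2b1 was not tested. Of the 22 other endothelial identity genes 18 had values above 0 (median 0.18), and their summed level was 450 to 511 CPM in PTS + RS against 417 to 436 CPM in RS. The transcription factor gene Fli1 had a log2 fold change of 1.13 (adjusted p of 0.054 in edgeR) and is also expressed in blood cells. Of 14 genes of Wnt and Norrin signalling to the barrier none passed in the same tools, and 3 had an unadjusted p under 0.05 in edgeR. The target gene Apcdd1 had a log2 fold change of 0.48 (adjusted p of 0.051 in edgeR).

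Of 18 genes of activated endothelium and vesicles 16 were tested and 2 passed, both higher (3 by DESeq2, with Cav1, a coat protein of caveolae). Icam1, which leukocytes bind on inflamed endothelium and which other cells also make, was at 7.82 and 7.96 CPM in PTS + RS and at 2.15 and 2.65 CPM in RS (log2 fold change 1.72, SE 0.22, adjusted p of 0.009 in edgeR). Ch25h, an enzyme that makes an oxysterol from cholesterol, was at 4.55 and 3.71 CPM in PTS + RS and at 0.386 and 0.568 CPM in RS (log2 fold change 3.11, SE 0.37). All 10 microglial genes also passed as higher in PTS + RS in edgeR, and the part of other cell types in Icam1 and Ch25h was not tested. Selp, the selectin of activated endothelium and platelets, had at most 3 counts in every library. Around the endothelium, 1 of 10 basement membrane genes passed, Sparc, a matrix protein also made by glia, with a log2 fold change of 0.89 (adjusted p of 0.0043 in edgeR). Of 10 pericyte genes 1 passed, Rgs5, a regulator of G protein signalling, which was at 129 and 117 CPM in PTS + RS and at 89.8 and 84.5 CPM in RS (log2 fold change 0.49, SE 0.08, adjusted p of 0.027 in edgeR). None of 6 tested genes of vascular smooth muscle passed in edgeR, DESeq2 or limma-voom, with 1 at an unadjusted p under 0.05 in edgeR. The medians of the pericyte and basement membrane lists, 0.16 on the log2 scale for each, were below that of the 10 barrier genes.

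The HDAC3 inhibitor was then compared with NaCl in mice that all carried stroke and restraint. None of the 10 genes passed in edgeR, DESeq2 or limma-voom, and none had an unadjusted p under 0.05 in edgeR. The background was low too, with 0% of 17565 genes passing and 1.17% at an unadjusted p under 0.05. Of the 10 genes 4 had values above 0 and 6 below, with a median of -0.04 on the log2 scale against -0.016 over all genes tested. The spread between libraries was wider here, with a common biological coefficient of variation of 32.1% against 11.4% for PTS + RS and RS, and the replicates within a group carry different tissue labels. The groups did not overlap for 2 genes, Ocln and Pecam1, against 26.6% of all genes. Set as 1 library against 1 within each labelled tissue, the ratio had opposite signs in the tissues for 6 of the 10, against 51.3% of all genes. With the labelled tissue as a replicate block in edgeR, the number of the 10 genes passing stayed at 0.

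For the same 4 libraries, those labelled amygdala were compared with those labelled cortex, with treatment as a term. Again none of the 10 passed in edgeR, DESeq2 or limma-voom, and 0% of 17565 genes passed in edgeR. At an unadjusted p under 0.05 in edgeR there were 3 of the 10, Slc2a1, Cldn5 and Mfsd2a, against 9.15% of all genes. The libraries of the labelled tissues did not overlap for 5 of the 10, against 44% of all genes. Labelled tissue and replicate number cannot be told apart in these libraries.

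The 5 genes without overlap were Cldn5, Cdh5 and Vwf, lower in the libraries labelled amygdala, and Mfsd2a and Slc2a1, higher there. Red blood cell genes were also higher in the libraries labelled amygdala (5 of 5 passing in DESeq2), as were striatal genes (9 of 10 passing in DESeq2). Of the microglial genes 9 of 10 were higher in fitted value (3 passing in DESeq2). Of the pericyte genes 8 were lower and 2 higher in fitted value. The part of these tissues and cells in the values of the barrier genes was not tested.

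Slc2a1 had the largest fitted difference of the 10 between labelled tissues. It was at 87.8 and 150 CPM in HDAC3 inhibitor replicates 1 and 2 and at 85.8 and 180 CPM in NaCl replicates 1 and 2. The libraries labelled amygdala were thus higher in both treatments, by a log2 fold change of 0.92 (SE 0.20, interval 0.40 to 1.44, unadjusted p of 0.0068 and adjusted p of 0.39 in edgeR), that is 1.89-fold. Between treatments the log2 fold change of Slc2a1 was -0.16 (SE 0.45, interval -1.32 to 1.00). Mfsd2a was at 17.4 and 32.6 CPM with HDAC3 inhibitor and at 26.8 and 36.5 CPM with NaCl. It was again higher in the library labelled amygdala of each treatment, by a log2 fold change of 0.67 (SE 0.23, adjusted p of 0.51 in edgeR), and it was -0.34 (SE 0.36) between treatments. Abcb1a was at 38.7 and 52.3 CPM with HDAC3 inhibitor and at 49.7 and 42.6 CPM with NaCl. Here the order of the labelled tissues was opposite in the treatments, and the log2 fold change of Abcb1a was -0.02 (SE 0.22) between treatments and 0.11 (SE 0.24) between labelled tissues.

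Cldn5 ran the other way. It was at 35.8 and 25.7 CPM with HDAC3 inhibitor and at 53.9 and 31.1 CPM with NaCl, highest in NaCl replicate 1, the library with olfactory bulb genes. The log2 fold change of Cldn5 was -0.64 (SE 0.20, interval -1.18 to -0.09, unadjusted p of 0.03 and adjusted p of 0.49 in edgeR) between labelled tissues and -0.47 (SE 0.34, interval -1.35 to 0.41) between treatments. The part of olfactory bulb tissue was not tested. Ocln was at 14.3 and 8.60 CPM with HDAC3 inhibitor and at 8.19 and 7.99 CPM with NaCl. HDAC3 inhibitor replicate 1 alone stood out, and of these 4 libraries it had the highest choroid plexus sum (2219 CPM against 182 to 222 CPM). Ttr was at 1348 CPM there against 1.36, 1.88 and 1.36 CPM, and the part of choroid plexus in Ocln was not tested. The log2 fold change of Ocln was 0.50 (SE 0.33, interval -0.36 to 1.36) between treatments and -0.39 (SE 0.30) between labelled tissues.

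Tjp1 was at 131 and 144 CPM with HDAC3 inhibitor and at 133 and 126 CPM with NaCl. These values of Tjp1 overlapped between the treatments and between the labelled tissues, with log2 fold changes of 0.09 (SE 0.17, interval -0.34 to 0.51) and 0.03 (SE 0.19). Cdh5 was at 18.8 and 17.2 CPM with HDAC3 inhibitor and at 22.2 and 15.9 CPM with NaCl. Pecam1 varied little, at 21.4 and 21.8 CPM with HDAC3 inhibitor and at 19.1 and 21.3 CPM with NaCl. Between treatments the log2 fold changes were -0.08 (SE 0.24) for Cdh5 and 0.10 (SE 0.19) for Pecam1. Between labelled tissues they were -0.30 (SE 0.23) and 0.09 (SE 0.21). The intervals between treatments reached from -0.71 to 0.55 and from -0.38 to 0.58, so that changes up to those sizes lie within what 2 libraries per group leave undecided.

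Plvap was at 8.24 and 6.50 CPM with HDAC3 inhibitor and at 7.34 and 7.99 CPM with NaCl. Its values overlapped, and the log2 fold change was -0.06 (SE 0.28) between treatments and -0.11 (SE 0.29) between labelled tissues. Vwf was at 62.9 and 28.7 CPM with HDAC3 inhibitor and at 32.7 and 31.0 CPM with NaCl. The value of Vwf in HDAC3 inhibitor replicate 1 was far above the other 3 libraries, which lay close together. The 8 platelet genes summed to 5.84 CPM in that library and to between 5.74 and 8.26 CPM over all 8 libraries. Only 4 of these 8 genes were kept by the filter on low counts, and the part of platelets in Vwf was not tested. Between treatments the log2 fold change of Vwf was 0.52 (SE 0.40, interval -0.50 to 1.55). Without HDAC3 inhibitor replicate 1 it was -0.14. Between labelled tissues it was -0.61 (SE 0.32). Set as 1 library against 1, this difference was -0.075 with NaCl and -1.127 with HDAC3 inhibitor.

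**Figure D4:**
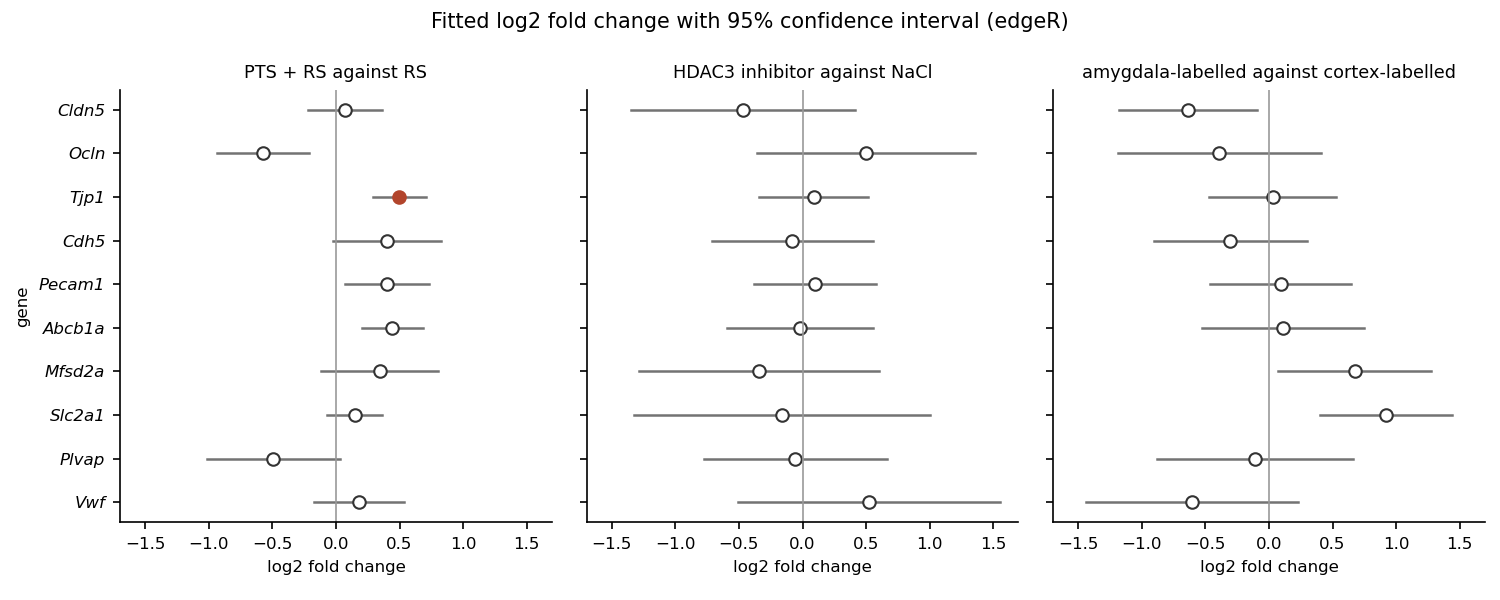
Fitted log2 fold change of each gene (point) with its 95% confidence interval (line) in 3 comparisons; the filled point is the gene that passed at an adjusted p under 0.05. Tjp1 is the filled point for PTS + RS against RS, and the intervals are wider in the other panels, whose libraries share the same 4 samples.

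Other vessel genes in these 4 libraries were set beside the 10. Between treatments none of the listed junction, transporter, endothelial, Wnt and Norrin, activation, basement membrane, pericyte or smooth muscle genes passed in edgeR, DESeq2 or limma-voom, and in edgeR an unadjusted p under 0.05 was found for 1 basement membrane gene and 1 smooth muscle gene. The lowest p was that of Nid1, a basement membrane linker, with a log2 fold change of -0.95 (adjusted p of 1 in edgeR).

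Between labelled tissues none of these genes passed in edgeR or limma-voom. DESeq2 passed 1 of 19 other barrier transporters, 1 of 22 endothelial identity genes and 2 of 14 Wnt and Norrin genes, against 1.26% of all genes, and it passed 9 of 10 striatal genes. Kdr, the main receptor for vascular endothelial growth factor, was at 8.51 and 7.29 CPM in the libraries labelled amygdala and at 26.3 and 24.1 CPM in those labelled cortex (log2 fold change -1.67, SE 0.22, adjusted p of 0.31 in edgeR). Wnt7a, a ligand that induces the barrier, was at 7.24 and 8.97 CPM against 20.2 and 39.5 CPM (log2 fold change -1.81). Apcdd1 was at 22.8 and 23.3 CPM against 46.5 and 89.9 CPM (log2 fold change -1.49). Wnt7a and Apcdd1 were highest in NaCl replicate 1, the library with olfactory bulb genes, and the part of that tissue was not tested. Slc39a10, a zinc carrier, was at 337 and 282 CPM against 170 and 113 CPM (log2 fold change 1.15). These 4 genes are those that DESeq2 passed in this same comparison. Their libraries did not overlap between labelled tissues, which was also true of 44% of all genes. The endothelial identity gene Cd34 went the other way from Kdr, at 60.2 and 55.5 CPM against 39.1 and 17.9 CPM (log2 fold change 1.125). The higher values of Slc2a1 and Mfsd2a thus stood beside lower values of Kdr and higher values of Cd34 in the same libraries. Of the 22 other endothelial identity genes 17 had values below 0, with a median of -0.29, and of the Wnt and Norrin genes 12 of 14, with a median of -0.44, against -0.013 over all genes tested.

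Each gene was centred on its mean over the 4 libraries of its table, as log2 CPM. The range over the 8 libraries was narrowest for Abcb1a (0.52) and widest for Vwf (1.13). Of the 45 pairs 24 had a positive and 21 a negative Pearson correlation over the 8 libraries, from 0.90 for Tjp1 and Pecam1 to -0.84 for Ocln and Abcb1a. These correlations are descriptive, since the libraries share groups and normalization. In PTS + RS replicate 1, 7 of the 10 were above the table mean, in PTS + RS replicate 2, 5 of the 10, and in each RS library 3 of the 10. The mean deviation of the 10 was 0.145 in PTS + RS replicate 1 and -0.011 in PTS + RS replicate 2.

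**Figure D5:**
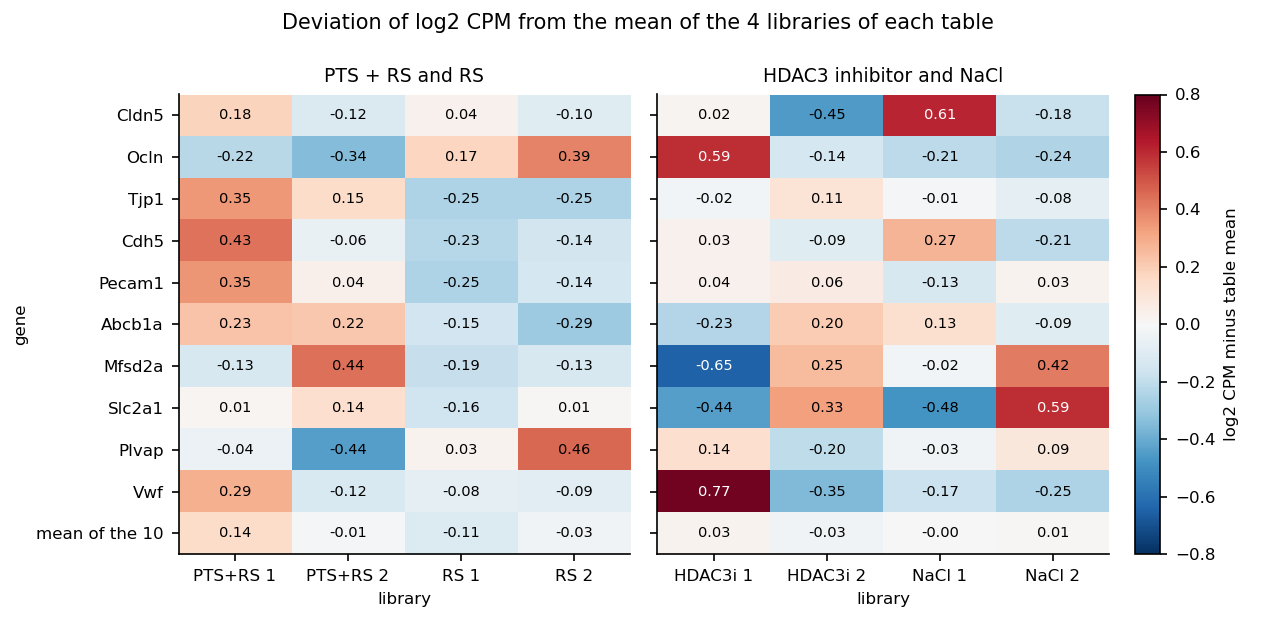
Deviation of log2 CPM from the mean of the 4 libraries of each table, for the 10 genes and their mean; red is above and blue below. Tjp1, Pecam1 and Abcb1a are above the mean in both PTS + RS libraries, while Slc2a1 and Mfsd2a are above it in the libraries with number 2 of the drug groups.

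Among 16947 genes tested in both tables, the patterns most like the mean of the 10 were those of Gm12345 (r = 0.99), Nr2e1 (r = 0.97), Kcnn3 (r = 0.95), Tpcn2 (r = 0.95) and Pon2 (r = 0.95) over 8 libraries. The pattern compared spans 0.25 on the log2 scale, and the likeness is given as a description.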

How the data were processed

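RNA-seq of mouse brain was analysed in 8 libraries, 2 in each of 4 groups taken from the labels. Per the study's methods and the submitters' processing notes, the authors aligned reads to GRCm38 with STAR 2.4.0 and counted reads per gene with HTSeq 0.6.1, and the deposited counts are not normalized. In the deposited FPKM values, the count is divided by gene length and a library factor. The authors' fold changes, p-values and group means were not used, nor were 8 further columns of normalized values per library. Genes of the HDAC3 inhibitor and NaCl table were matched to identifiers by position and symbol, for all 28229.

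Counts were filtered (filterByExpr), normalized (TMM) and tested with edgeR 4.0.16 (quasi-likelihood, two-sided) in R 4.3.3, within each table, with Benjamini-Hochberg adjustment over all genes tested; a gene passed at an adjusted p under 0.05. CPM are scaled to TMM library sizes, and log2 CPM used a prior count of 2. Alternatives used limma 3.58.1, DESeq2 1.42.0, other scalings, no filter, a replicate block and leaving out libraries. The DESeq2 fit with the block was added after the data were seen. Fits were tested on simulated data. Total counts were 15902013 to 21712033 per library, and replicates of a group differed by more than counting noise (chi-square of 15.0 and 4.87 per gene in PTS + RS and RS, and of 38.0 and 82.7 in the drug groups, whose replicates carry different tissue labels). The replicate number of the HDAC3 inhibitor and NaCl libraries is tied to the labelled tissue, and same-numbered libraries deviated together (correlation 0.30 over genes). Tables were prepared and plotted in Python 3.11.15 with pandas 2.3.3, numpy 2.4.6 and matplotlib 3.10.9. The 10 genes and the 20 other gene lists were chosen with earlier results of these data known. All 10 genes are given in each comparison; of other lists, the genes passing (at most 3 in each direction) or, where none passed, those with the lowest p (at most 2) could be named, as could the 5 genes most like the mean of the 10. Of these, genes with no bearing on the 10 are given as counts. Cav1, Selp, Ttr, Abcb1b and Gtpbp3 were named outside this rule, after their values were seen.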

Additional observations from a re-analysis of the deposited data

Results flagged for a closer look

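In the HDAC3 inhibitor and NaCl libraries, 6 of the 10 genes had ratios of opposite sign in the libraries labelled cortex and in those labelled amygdala, as did 51.3% of all genes tested. The ratio of 1 HDAC3 inhibitor library to 1 NaCl library, on the log2 scale, was -0.02 and 0.19 for Tjp1 (cortex, then amygdala), a difference of -0.20. It was -0.24 and 0.11 for Cdh5, a difference of -0.35. Abcb1a had ratios of -0.36 and 0.30, a difference of -0.66. For Slc2a1 the ratios were 0.03 and -0.26, a difference of 0.30, and for Plvap 0.17 and -0.29, a difference of 0.46. Vwf had ratios of 0.94 and -0.11, a difference of 1.05, with HDAC3 inhibitor replicate 1 the highest of the 4 libraries. Each ratio rests on 1 library per arm, so these differences were not tested.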

How the results depend on the processing

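For PTS + RS against RS, the number of the 10 genes passing was 1 with either other scaling, DESeq2, limma-voom, the replicate block (log2 fold change median 0.24) and DESeq2 with the block. It was 3 without the filter on low counts. Without RS replicate 1 or RS replicate 2 it was 0, where the lone RS library was assumed to vary like the PTS + RS libraries. Without PTS + RS replicate 1 it was 4 (Ocln, Tjp1, Abcb1a and Mfsd2a), and without PTS + RS replicate 2 it was 4 (Tjp1, Cdh5, Pecam1 and Abcb1a); the causes were not tested. The median of the 10 stayed between 0.17 and 0.30 when libraries were left out. The same replicate numbers did not deviate together here (correlation 0.035 over genes), so they share only a number. Leaving out libraries reversed the sign of Cldn5 (range -0.09 to 0.21) and Vwf (-0.04 to 0.37).

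For HDAC3 inhibitor against NaCl, the number passing was 0 in every setting run, the replicate block included. The median of the 10 was -0.09 with total counts alone, 0.009 within the libraries labelled cortex, and between 0.003 and 0.066 when libraries were left out. Leaving out libraries reversed Cdh5 (-0.29 to 0.17), Abcb1a (-0.25 to 0.18), Mfsd2a (-0.864 to 0.043), Slc2a1 (-0.60 to 0.48), Plvap (-0.24 to 0.11) and Vwf (-0.14 to 0.98). For the labelled tissues the number passing was 0 in every test run; leaving out a library leaves no residual degree of freedom and gave values only.

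Over all genes, 521 passed as higher and 103 as lower for PTS + RS against RS. The counts were 1119 and 716 without the filter, 1018 and 753 without PTS + RS replicate 1, 1413 and 1278 without PTS + RS replicate 2, and 339 and 32 without RS replicate 2. For HDAC3 inhibitor against NaCl they were 0 and 0, against 0 and 6 by DESeq2 with the replicate block and 15 and 78 without NaCl replicate 2. For the labelled tissues they were 0 and 0, against 156 and 53 by DESeq2 and 187 and 53 without the filter. No setting varied depth.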
